A study of Mus musculus with 55 samples.

Results

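The comparison set 19 mice that had become susceptible (SUS) to chronic social defeat stress (CSDS) against 16 mice that had remained resilient (RES), with both housings in 1 model. These 35 defeated mice were chosen by their labels from the 54 mice, in 55 libraries, of a study that sequenced RNA from punches of the ventral dentate gyrus. All were male C57BL/6J mice. According to the study's methods, they were raised from weaning either in standard housing (SH) or in an enriched environment (EE), and the defeated mice met CD1 aggressors over repeated days as young adults. A defeated mouse was SUS or RES by the ratio of its times inside and outside a zone around an unfamiliar CD1 mouse, so the 2 phenotypes share the stressor and differ in the behavior that followed it. There were 10 SUS and 7 RES mice raised in SH, and 9 SUS and 9 RES mice raised in EE. The 10 SH and 9 EE control mice had not been defeated, and their levels are given only as a background. Each library was made from 1 mouse, and the p-values below measure the spread between mice. The mice were not assigned to SUS or RES at random, and no measure of the state of the animals before defeat was used here.

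CSDS is widely used as a model of stress-induced social avoidance, because genetically alike males diverge after the same defeats. The dentate gyrus is the entry station of the hippocampus, where granule cells receive cortical input and send it to CA3 pyramidal cells, and it is among the few brain areas that make neurons in adult life. Its ventral part is linked to anxiety and to the control of the stress axis. Glucocorticoids released during stress act in this tissue through the mineralocorticoid and glucocorticoid receptors, which switch on targets such as *Fkbp5* and *Sgk1*, and neurotrophins such as brain-derived neurotrophic factor act there on growth and plasticity.

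The libraries of the 35 mice held 35171263 to 49879608 read pairs, of which 18065586 to 24426804 were counted on the sense strand of genes. None of 9 technical measures, among them depth, the share of unmapped pairs and the share of mitochondrial counts, differed between SUS and RES mice in a permutation test within housing (every adjusted p was 0.926 or more). Granule cell markers were present at high level in all mice. *Prox1*, the transcription factor that specifies granule cells, ranged from 96.5 to 193 CPM (normalized counts, in which the counts of all libraries are scaled to the same total), and *Calb1*, the calcium buffer calbindin, from 166 to 316 CPM. The punches also held other tissue to unequal degrees. *Ttr*, the main secreted protein of choroid plexus, was not detected in 3 SUS mice and reached 472 CPM in another.

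No gene passed an adjusted p of 0.05 between SUS and RES mice in the quasi-likelihood test of edgeR over 17991 genes (0%), where the smallest adjusted p was 0.998. limma and DESeq2 also called 0 genes, with smallest adjusted p-values of 0.999 and 0.231. At an unadjusted p below 0.05, edgeR named 625 genes (3.47% of those tested), limma 596 and DESeq2 598, fewer than the 900 that a uniform spread of p-values would give. Of the 625 genes, 310 had the higher level in SUS mice (1.72%) and 315 the lower (1.75%). Under the criterion of the study, an unadjusted p below 0.05 with more than a 1.3-fold difference in limma, 67 genes were named (0.372%), 35 with the higher level in SUS mice and 32 with the lower. The other term of the same fit behaved differently: between EE and SH mice, 402 genes passed an adjusted p of 0.05 (2.23%) and 3330 had an unadjusted p below 0.05. The same 35 libraries and the same model therefore gave adjusted calls for housing and none for phenotype.

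**Figure D1:**
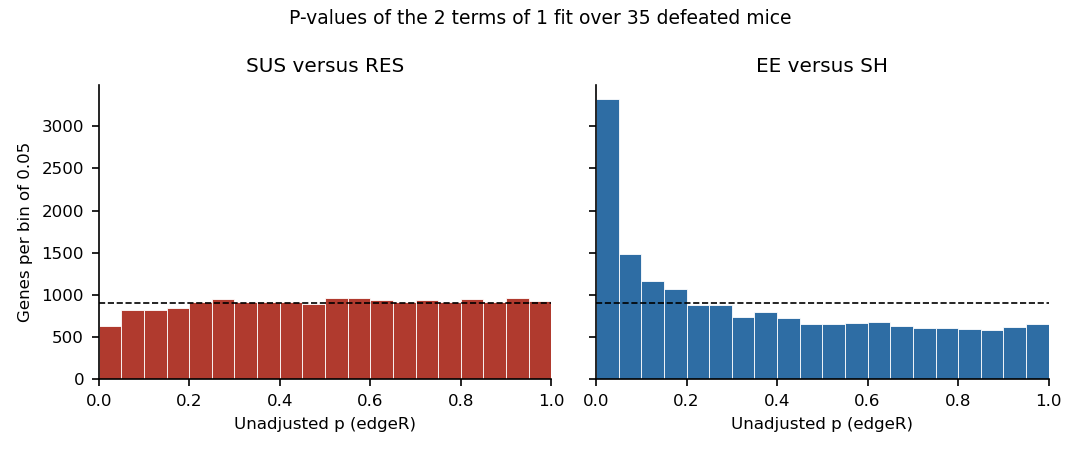
Number of genes (y axis) in bins of the unadjusted edgeR p (x axis, 0 to 1) for the SUS against RES term, left, and the EE against SH term, right, of 1 fit over 35 mice and 17991 genes, with a dashed line at the 900 genes per bin of a uniform spread. The first bin of the phenotype term holds 625 genes, below the line, and that of the housing term holds 3330.

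The fit was precise enough to bound most differences. The median standard error of the log2 fold change was 0.053, and for 15385 genes (85.5%) the whole 95% confidence interval of the SUS to RES ratio lay within 1.3-fold of equality in either direction. It lay within 1.5-fold for 17433 genes (96.9%) and within 2-fold for 17912 genes (99.6%). Precision followed the level of the gene. Among genes with a mean under 1 CPM, 28.9% had an interval within 1.3-fold, and among genes of 10 to 100 CPM, 99.3% had. The median absolute log2 difference was 0.034 for phenotype and 0.055 for housing. Only 155 genes differed by more than 1.3-fold in the fitted value at any p, and 8 by more than 2-fold. These intervals are per gene and were not widened for the number of genes.

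When the 2 housings were given separate phenotype effects in a model of the 4 defeated groups, 933 genes had an unadjusted p below 0.05 within SH (5.19%) and 645 within EE (3.59%), with 0 genes at an adjusted p of 0.05 in either. Of these genes, 56 were in both lists, which is 6.002% of the SH list and 8.68% of the EE list, and 21 of the 56 had the same direction in both housings. Over all genes tested, 48.3% had the same sign within SH and within EE. A gene could thus have a small p within a housing and a pooled value near 0. *Serpina3g*, which encodes a serine protease inhibitor induced in activated leukocytes, had a log2 difference of 0.92 within SH, −0.66 within EE and 0.03 over both (95% interval −0.47 to 0.53). *Dcn*, which encodes the matrix proteoglycan decorin, was at 0.30 within SH and −1.08 within EE.

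**Figure D2:**
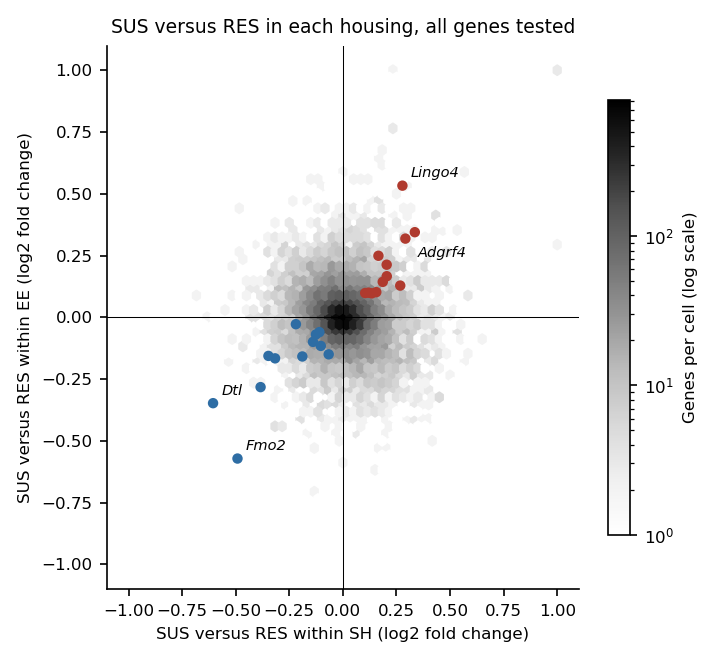
SUS against RES log2 difference within SH (x axis) and within EE (y axis) for 17991 genes, shaded by the number of genes per cell, with the 12 leading genes of higher level in SUS mice in red and the 12 of lower level in blue; values beyond 1 in either direction are drawn at 1. The cloud is centered on 0 with 48.3% of genes of the same sign, and the colored genes lie in the 2 quadrants of shared sign because a small pooled p selects for it.

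The genes with the smallest pooled p are described next as the top of a ranking and not as calls, since each had an adjusted p of 0.998 in edgeR. They were taken as the 12 protein-coding genes of smallest p in each direction with a mean of at least 1 CPM. Their differences were small. The 12 genes of higher level in SUS mice had ratios of 1.07 to 1.34 and the 12 of lower level had ratios of 0.691 to 0.944. Their common sign in both housings follows from the way they were chosen. All 24 had an unadjusted p below 0.05 whichever mouse was left out. Genes chosen for a small p in these same mice tend to keep it in such fits, so this is no separate support. *Slc35f5* was the only one with an unadjusted p below 0.05 for a difference between the housings (0.0168).

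*Adgrf4*, an orphan adhesion G protein-coupled receptor, had the smallest p of all genes. Its lowest, median and highest levels were 3.68, 5.50 and 6.34 CPM in SUS mice and 3.19, 4.24 and 5.45 CPM in RES mice. The groups overlapped, but 10 of the 19 SUS mice lay above every RES mouse and 18 lay above the RES median. The means were 5.29 ± 0.722 CPM (SD, n = 19) and 4.29 ± 0.664 CPM (SD, n = 16), a ratio of 1.24 with a 95% interval of 1.12 to 1.37 and an unadjusted p of 0.000111. The log2 difference was 0.29 within SH and 0.32 within EE. Control mice, with medians of 4.35 CPM in SH and 3.96 CPM in EE, were at the level of RES mice. The gene lies on chromosome 17 from 42656891 to 42692284 on the minus strand (GRCm38). In DESeq2 it and *C3* shared the smallest adjusted p, 0.231, and with SUS mouse 9 of EE left out, its adjusted p in edgeR was 0.163.

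Several other genes of higher level in SUS mice act in chromatin, ion transport and growth factor signaling. *Kdm6b*, a demethylase of lysine 27 of histone H3, was at 3.64, 4.54 and 6.21 CPM in SUS mice (lowest, median, highest) and at 3.24, 4.14 and 4.74 CPM in RES mice. Of the SUS mice, 8 exceeded every RES mouse, and the ratio was 1.16 (95% interval 1.06 to 1.27). Control mice were at medians of 4.67 CPM in SH and 5.35 CPM in EE, above the RES median, so RES mice had the lowest median of the phenotypes. *Slc9a5*, a sodium-proton exchanger of neurons, was at 8.07, 9.33 and 10.9 CPM in SUS mice and at 6.20, 8.48 and 10.4 CPM in RES mice, a ratio of 1.14 (1.05 to 1.24), and only 2 SUS mice exceeded every RES mouse. *Gdf11*, a ligand of the TGF-beta family, averaged 30.0 ± 2.01 CPM in SUS and 27.9 ± 2.26 CPM in RES mice. Ratios under 1.1 were also seen for *Mrpl54*, a protein of the mitochondrial ribosome (13.4 ± 0.760 against 12.3 ± 0.803 CPM), *Sav1*, a scaffold of the Hippo pathway (10.3 ± 0.626 against 9.39 ± 0.893 CPM), and *Csad*, an enzyme of taurine synthesis (17.2 ± 1.28 against 16.1 ± 0.806 CPM). For such genes the difference in means was about as large as the spread between mice of a group.

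The other 5 genes of higher level in SUS mice are known from vessels, matrix, blood cells and the neuronal surface. *Mcam*, an adhesion molecule of vessel walls, averaged 13.9 ± 1.58 CPM in SUS and 12.6 ± 1.66 CPM in RES mice, and it also passed an adjusted p of 0.05 for housing in edgeR (0.0484). *Pcolce2*, an enhancer of procollagen processing, averaged 4.34 ± 0.492 and 3.85 ± 0.555 CPM. *Lingo4*, a membrane protein with leucine-rich repeats, had the largest ratio of the 12, 1.34 (1.11 to 1.61), at 0.693, 0.935 and 1.92 CPM in SUS mice and 0.500, 0.859 and 1.48 CPM in RES mice. *Fyb*, an adaptor of T cells and myeloid cells, had a ratio of 1.27 (1.09 to 1.47), with 7 SUS mice above every RES mouse. *Fermt3*, the kindlin of blood cells that activates integrins, had a ratio of 1.16 (1.05 to 1.28), and its medians in control mice, 3.93 CPM in SH and 3.81 CPM in EE, were at the SUS median of 3.79 CPM. In the punches, fewer cells of a type and less RNA per cell cannot be told apart.

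**Figure D3:**
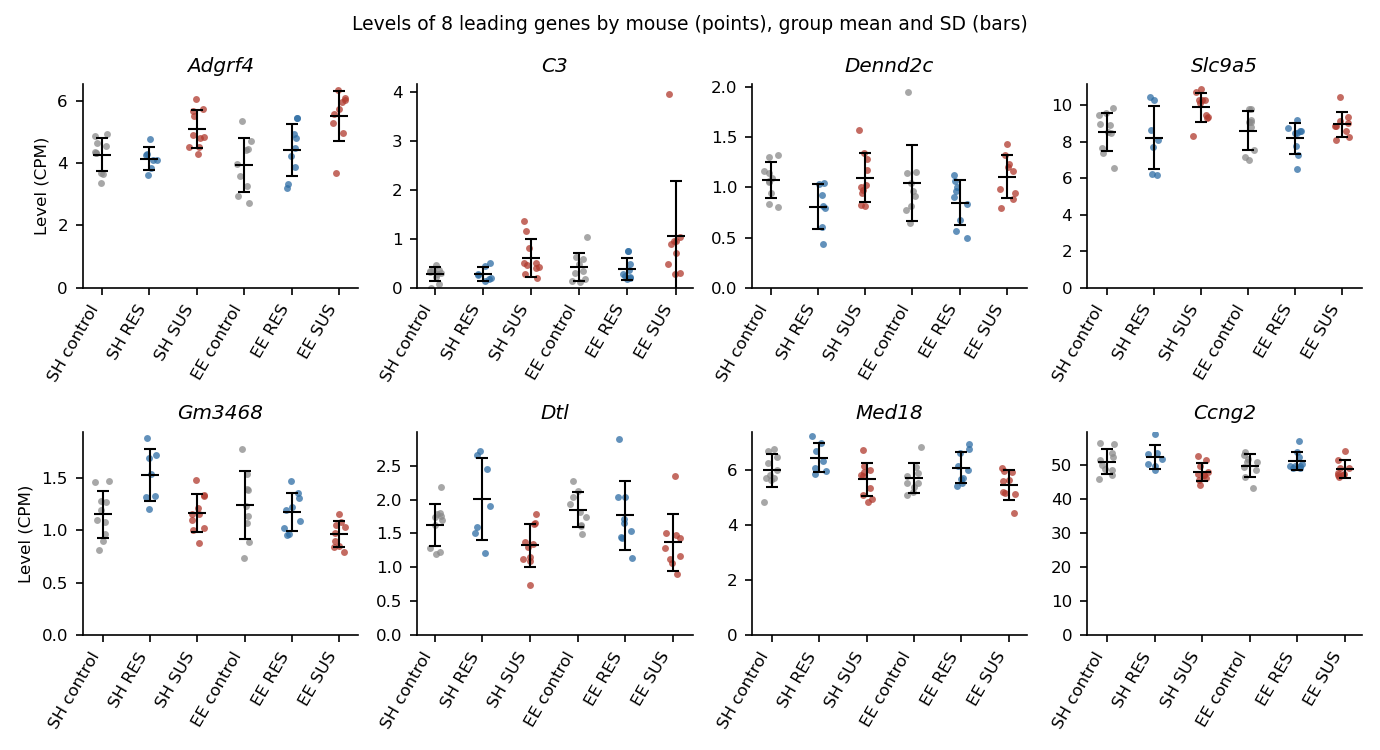
Level (y axis, CPM from 0) of 8 genes among those of smallest p in every mouse (points) of the 6 groups (x axis), with the group mean and SD as bars (the SD bar of *C3* in EE SUS mice is clipped at 0). SUS and RES points overlap in every panel; *Adgrf4* has 10 SUS mice above every RES mouse, and in *C3* SUS mouse 7 of EE stands alone at 3.95 CPM.

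Of the 12 genes of lower level in SUS mice, 3 are known from the cell cycle or from DNA replication and phosphatase control. *Dtl*, which recruits replication licensing factors for degradation in S phase, was at 0.739, 1.301 and 2.35 CPM in SUS mice and at 1.14, 1.68 and 2.89 CPM in RES mice (lowest, median, highest). Of the SUS mice, 6 lay below every RES mouse and 17 lay below the RES median, with a ratio of 0.720 (0.600 to 0.865) and an unadjusted p of 0.000839. Control medians of 1.72 CPM in SH and 1.82 CPM in EE were close to the RES median. *Ccng2*, a cyclin linked to cell cycle arrest, had 12 SUS mice below every RES mouse, the largest such count among the 24 genes, although its ratio was only 0.935 (0.899 to 0.973). Its levels were 43.9, 47.4 and 54.1 CPM in SUS mice and 48.4, 50.2 and 58.9 CPM in RES mice, and control medians were 50.6 and 50.9 CPM. *Ppp2r1b*, a scaffold subunit of protein phosphatase 2A, was at 11.9, 12.6 and 15.3 CPM in SUS mice and at 12.7, 14.2 and 15.4 CPM in RES mice, with 10 SUS mice below every RES mouse and control medians of 14.2 and 14.5 CPM.

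Both *Med18* and *Med17* encode subunits of Mediator, the complex that links transcription factors to RNA polymerase II. *Med18* averaged 5.57 ± 0.564 CPM in SUS and 6.26 ± 0.568 CPM in RES mice, a ratio of 0.887 (0.827 to 0.951) with 8 SUS mice below every RES mouse. *Med17* averaged 34.5 ± 1.59 and 36.5 ± 1.95 CPM, a ratio of 0.944 (0.910 to 0.979). *Fmo2*, a flavin-containing monooxygenase, had the lowest ratio of the 12, 0.691 (0.552 to 0.866). It was at 0.609, 0.818 and 1.77 CPM in SUS mice and at 0.621, 1.25 and 2.63 CPM in RES mice, and the control medians, 0.752 and 0.771 CPM, were at the SUS level. RES mice were thus the group with the highest median of *Fmo2*. *Wfs1*, a protein of the endoplasmic reticulum that marks CA1 pyramidal cells in the hippocampus, had a ratio of 0.848 (0.757 to 0.949), and its highest level, 34.1 CPM, was in a RES mouse.

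The other 5 were a receptor, a cell adhesion molecule, a transporter and genes of less defined function. *Gpr85*, an orphan receptor of neurons, averaged 50.7 ± 3.31 CPM in SUS and 54.4 ± 4.09 CPM in RES mice. *Pcdhb4*, a clustered protocadherin, averaged 4.85 ± 0.757 and 5.73 ± 0.882 CPM. For *Slc35f5*, a member of a nucleotide sugar transporter family, the log2 difference was −0.22 within SH and −0.03 within EE, so its pooled value came mainly from SH mice. *Fam118b* averaged 22.96 ± 2.02 and 24.7 ± 2.47 CPM. *Gm3468*, a predicted gene, averaged 1.07 ± 0.184 and 1.33 ± 0.274 CPM and passed an adjusted p of 0.05 for housing in edgeR (0.0450); predicted genes of this kind can share reads with near-identical copies, and its level is uncertain.

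Larger ratios came mostly with low levels, and several of these genes are immune genes. Of 83 genes with an unadjusted p below 0.05 and more than a 1.3-fold ratio in edgeR, 65 had a mean under 1 CPM. *C3*, the central component of the complement cascade, was at 0.191, 0.510 and 3.95 CPM in SUS mice and at 0.136, 0.266 and 0.760 CPM in RES mice (chromosome 17, 57203970 to 57228136, minus strand). In 8 SUS mice the level lay above that of every RES mouse and in 18 above the RES median, and the ratio was 2.46 (1.57 to 3.85) with an unadjusted p of 0.000230. Control medians were 0.313 CPM in SH and 0.337 CPM in EE, near the RES level. Without SUS mouse 7 of EE, which had the highest level, the log2 difference of *C3* was 0.94 in place of 1.3. *Dennd2c*, an activator of Rab GTPases, averaged 1.10 ± 0.224 CPM in SUS and 0.830 ± 0.215 CPM in RES mice, a ratio of 1.33 (1.13 to 1.57), and the control medians were 1.08 CPM in SH and 0.964 CPM in EE.

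The same SUS mouse weighed on other genes of neutrophils and monocytes. It had 23.3 CPM of *Lcn2*, a lipocalin of neutrophils and reactive astrocytes, and 13.3 CPM of *S100a9*, a calcium-binding protein of neutrophils, where the next SUS mice had 12.4 and 1.42 CPM. The pooled log2 differences were 1.67 for *Lcn2* and 1.42 for *S100a9*, and without this mouse they were 0.98 (unadjusted p = 0.0729) and −0.13 (unadjusted p = 0.775). In limma the unadjusted p-values with all mice were 0.394 and 0.590. *Ccr2*, the chemokine receptor of inflammatory monocytes, was at 0.102, 0.636 and 3.71 CPM in SUS mice and at 0.141, 0.340 and 1.09 CPM in RES mice. Its log2 difference was 1.16, and 0.87 without that mouse (unadjusted p = 0.0109). Genes of antigen presentation by MHC class II also had higher SUS means. *Cd74*, the invariant chain, had a log2 difference of 0.64 (0.15 to 1.13) and *H2-Eb1* one of 0.44 (0.09 to 0.79). For both the unadjusted p stayed below 0.05 whichever mouse was left out, but with the tissue scores described below as covariates it was 0.0592 for *Cd74* (log2 difference 0.49) and 0.0610 for *H2-Eb1* (0.34). *H2-Aa* was at 0.59 (0.04 to 1.13), and its highest unadjusted p with a mouse left out was 0.0899. All of these had medians under 2 CPM in both phenotypes.

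Over whole lists, a gene is counted below as higher or lower by the sign of its fitted difference, and no list member passed an adjusted p of 0.05. The background for every list is that of all 17991 genes. Of these, 9078 were higher and 8913 lower, and 3.47% had an unadjusted p below 0.05. Of 20 markers of homeostatic microglia, 15 had the higher and 5 the lower value in SUS mice, with none at an unadjusted p below 0.05 and a median log2 difference of 0.02. Without SUS mouse 7 of EE, whose summed level of these markers was the highest at 1039 CPM, the counts were 6 and 14 and the median was −0.01. Of 19 measured genes of antigen presentation, 15 were higher and 4 lower, and 3 and 1 of these (21.1% of the list) had an unadjusted p below 0.05. The 1 of lower level was *Lag3*, an inhibitory receptor of lymphocytes and microglia (log2 difference −0.30). The pooled value of *Lag3* came from SH mice, with −0.63 within SH and 0.01 within EE (unadjusted p = 0.00182 for the difference between the housings, adjusted p = 0.843). With the tissue scores, none of the genes of higher level in this list had an unadjusted p below 0.05. The 26 interferon-induced genes were split evenly, 13 and 13, with *Oasl2* alone at an unadjusted p below 0.05. Only 4 of 15 neutrophil genes were high enough to be tested, and *S100a8*, *Ngp*, *Camp* and *Ly6g* were among those too low. Their median log2 difference was 0.79, and 0.09 without the mouse. Of 18 measured genes of circulating leukocytes, a list written after the leading genes were seen, 16 were higher and 2 lower, 6 of them at an unadjusted p below 0.05, against 3.47% of all genes. The leading genes *Fyb* and *Fermt3*, which prompted the list, are 2 of the 6. The median of the 18 was 0.12, and 0.09 without the mouse, against 0.00 over all genes.

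The genes through which stress hormones act had bounded differences between SUS and RES mice. *Nr3c1*, the glucocorticoid receptor, was at 128, 139 and 155 CPM in SUS mice and at 117, 135 and 160 CPM in RES mice (lowest, median, highest), and its log2 difference was 0.02 with a 95% interval of −0.04 to 0.08. *Nr3c2*, the mineralocorticoid receptor, was at 0.03 (−0.03 to 0.09). *Fkbp5*, the co-chaperone that restrains the glucocorticoid receptor, was at 34.2, 43.2 and 50.1 CPM in SUS mice and at 29.6, 41.9 and 52.1 CPM in RES mice, with a log2 difference of 0.04 (−0.08 to 0.15). *Sgk1*, a kinase, and *Tsc22d3*, which encodes the anti-inflammatory protein GILZ, are both induced by glucocorticoids, and their values were −0.08 (−0.19 to 0.02) and −0.07 (−0.18 to 0.04). With the tissue scores as covariates they were −0.14 and −0.12, with unadjusted p-values of 0.00154 and 0.0196. In the model without the scores, the 95% intervals of these 5 genes lay within 1.3-fold of equality. Of 30 glucocorticoid targets, 10 had the higher and 20 the lower level in SUS mice, with 1 (*Lcn2*) and 2 (*Hif3a* and *Angptl4*) at an unadjusted p below 0.05 and a median of −0.02. *Crhr1*, the receptor of corticotropin-releasing hormone, was at 0.03 (−0.08 to 0.15), and *Crhbp*, its binding protein, which has a lower level, was at −0.07 (−0.36 to 0.22).

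Most neurotrophin and activity genes also had values near 0. *Bdnf* was at 56.2, 62.4 and 89.5 CPM in SUS mice and at 53.4, 64.2 and 96.7 CPM in RES mice, a log2 difference of −0.04 (−0.16 to 0.08). Its receptor gene *Ntrk2* was at −0.02 (−0.08 to 0.04). None of 16 measured genes of neurotrophin signaling had an unadjusted p below 0.05. The activity markers *Arc* and *Egr1* were at 0.04 (−0.10 to 0.18) and 0.08 (−0.12 to 0.28), and *Fosb* was at −0.08 (−0.29 to 0.13). *Fos* had the largest difference among the genes named here, −0.27 (−0.54 to 0.00, unadjusted p = 0.0515), with levels of 1.997, 3.27 and 4.73 CPM in SUS mice and 2.24, 3.17 and 6.82 CPM in RES mice. The medians of *Fos* were thus alike, and the lower SUS mean came from the upper end of the RES range. The 30 immediate early genes were split evenly, with 15 of higher and 15 of lower level in SUS mice. An unadjusted p below 0.05 was seen for 2 of them (6.67%, against 3.47% of all genes), both of lower level. The lowest log2 difference of the list was −0.50.

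**Figure D4:**
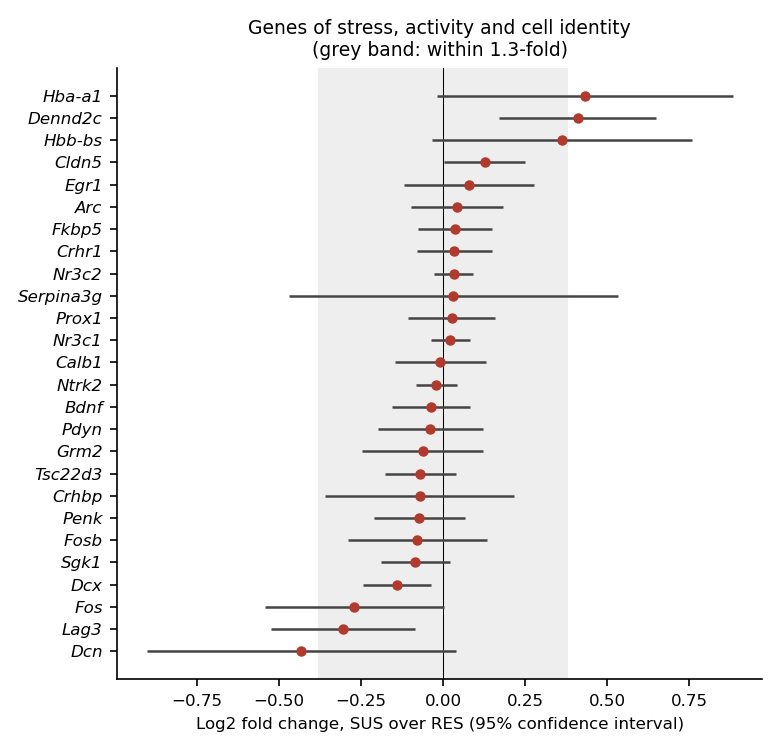
Log2 difference of SUS over RES mice (x axis) with its 95% confidence interval (lines) for 26 genes of stress, activity and cell identity (y axis), housing as covariate; the grey band marks a ratio within 1.3-fold. The intervals of *Nr3c1*, *Nr3c2*, *Ntrk2*, *Bdnf* and *Fkbp5* lie inside the band, and those of *Dcn*, *Hba-a1*, *Hbb-bs* and *Serpina3g* reach far outside it.

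Among neuropeptides, 6 of 25 measured genes had the higher and 19 the lower level in SUS mice, with a median log2 difference of −0.06. *Tac1*, which encodes substance P, and *Grp*, which encodes gastrin-releasing peptide, were the members with an unadjusted p below 0.05 (8% of the list, against 3.47% of all genes). *Tac1* was at 4.398, 5.17 and 7.09 CPM in SUS mice and at 4.26, 6.01 and 7.61 CPM in RES mice, a log2 difference of −0.17 (−0.31 to −0.03). *Grp* was at −0.28 (−0.54 to −0.02). With the tissue scores as covariates, 5 of the 25 genes were higher and 20 lower. None had an unadjusted p below 0.05 in that edgeR fit, with 0.175 for *Tac1* and 0.268 for *Grp*. The opioid precursors *Penk* and *Pdyn*, which granule cells express, were at −0.07 (−0.21 to 0.07) and −0.04 (−0.20 to 0.12).

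Markers of mature granule cells, the main neurons of the dentate gyrus, had bounded differences. Over both housings, all 20 had an interval within 1.3-fold and none had an unadjusted p below 0.05. Their median was −0.11 within SH and 0.07 within EE. Over both it was −0.01, with 8 markers higher and 12 lower. This balance depended on the model: with the tissue scores as covariates, 19 were higher and 1 lower, with a median of 0.05 and 1 gene at an unadjusted p below 0.05. Their summed level was 1960, 2500 and 2972 CPM in SUS mice and 1848, 2646 and 2946 CPM in RES mice. Of 17 markers of immature granule neurons, 5 were higher and 12 lower, with *Dcx*, the microtubule-associated protein doublecortin, at −0.14 (−0.24 to −0.04, unadjusted p = 0.00947). *Dcx* ranged from 12.3 to 16.8 CPM in SUS mice and from 12.6 to 19.8 CPM in RES mice, with medians of 14.6 and 14.8 CPM. Of 17 genes of progenitors and proliferation, 6 were higher and 11 lower, and *Mki67* and *Cenpf*, both expressed in dividing cells, had an unadjusted p below 0.05 (0.0411 and 0.0435, log2 differences of −0.21 and −0.20). The progenitor list as a whole had a median of −0.03. With 1 mouse left out, 0 to 3 of its members of lower level had an unadjusted p below 0.05. With the tissue scores as covariates, 9 were higher and 8 lower, with a median of 0.01. In that edgeR fit the unadjusted p was 0.192 for *Mki67* and 0.164 for *Cenpf*.

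The list medians of the neighboring CA1 and CA3 fields had opposite signs. Of 16 markers of CA1 and subiculum, 2 had the higher and 14 the lower level in SUS mice. Their median was −0.10 (−0.06 within SH and −0.18 within EE). *Wfs1* was among the 2 members (12.5%) with an unadjusted p below 0.05, against 3.47% of all genes. The median summed level was 510 CPM in SUS and 555 CPM in RES mice. Of 18 markers of CA3 and CA2, 15 were higher and 3 lower, with a median of 0.06 (0.10 within SH and 0.02 within EE). *Necab2* and *Amigo2* (11.1%) had an unadjusted p below 0.05. The median summed level of this list was 1411.5 CPM in SUS and 1407.4 CPM in RES mice, with 10 SUS mice above the RES median. Of 22 markers of GABA interneurons, 9 were higher and 13 lower. *Reln* and *Tac1* (9.09%) had an unadjusted p below 0.05, both with the lower mean in SUS mice. With the tissue scores as covariates, no interneuron marker had an unadjusted p below 0.05. All 22 had an interval within 1.3-fold.

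Among lists of 5 or more measured genes, the largest medians belonged to tissue outside the dentate gyrus. Of 19 markers of thalamus, 18 had the higher level in SUS mice, with a median log2 difference of 0.37. *Rgs16* and *Tcf7l2* (10.5% of the list) had an unadjusted p below 0.05, against 3.47% of all genes. The summed level was 726, 986 and 1539 CPM in SUS mice and 782, 874 and 1669 CPM in RES mice, and the highest of all was RES mouse 6 of EE. The median was 0.26 without SUS mouse 8 of EE and 0.53 without RES mouse 6. The number of these genes with an unadjusted p below 0.05 ranged from 0 without SUS mouse 3 of SH to 15 without RES mouse 6 of EE, when the number over all genes also went from 625 to 926, and leaving out any of 23 mice moved it by more than 1.5 times. Of 14 measured markers of choroid plexus, 13 were higher, with a median of 0.47, and *Otx2* and *Kcnj13* (14.3% of the list) had an unadjusted p below 0.05. The summed level was 107, 137 and 1002 CPM in SUS mice and 111, 125 and 605 CPM in RES mice, so a few punches lay far above the others. Without SUS mouse 3 of EE, which was at 1002 CPM, the median was 0.18. The low-level markers of choroid plexus, such as *Folr1*, were among the 6 that did not pass the filter.

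Myelin genes had a uniform direction. All 22 markers of mature oligodendrocytes had the higher level in SUS mice, with a median log2 difference of 0.17, 0.20 within SH and 0.14 within EE. An unadjusted p below 0.05 was seen for 5 of them, namely *Klk6*, *Anln*, *Cldn11*, *Gjb1* and *Ermn*, or 22.7% of the list against 3.47% of all genes. With 1 mouse left out this count ranged from 2, as without SUS mouse 3 of SH, to 11 without RES mouse 3 of EE, and 14 of the mice moved it by more than 1.5 times. It was 1 without the housing term. *Cldn11*, which seals the layers of myelin, was at 21.5, 33.3 and 58.0 CPM in SUS mice and at 20.8, 27.8 and 46.1 CPM in RES mice, a log2 difference of 0.24 (0.02 to 0.46). The major myelin gene *Mbp* was at 0.16 (unadjusted p = 0.0630). The genes of 1 cell type vary together between punches, and the 22 are not independent observations. The summed level was 1233, 1797 and 2939 CPM in SUS mice and 1258, 1594 and 2422 CPM in RES mice. Within SH the medians of this sum were 1549 and 1527 CPM, with SUS mouse 3 alone at 2939 CPM and the next SH SUS mouse at 2052 CPM. Within EE they were 2165 and 1813 CPM. Of 15 markers of oligodendrocyte precursors, 7 were higher and 8 lower, with *Sox10* at 0.16 and *Gpr17* and *Neu4* at −0.13 and −0.11.

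Many medians changed once the content of other tissue entered the model, 31 of 58 toward 0 and 27 away from it. When scores of choroid plexus, thalamus and CA3 markers were added as covariates, 12 of the 22 myelin genes had the higher level in SUS mice and 10 the lower, with none at an unadjusted p below 0.05 and a median of 0.00. The same fit gave medians of 0.00 for thalamus and choroid plexus, whose own genes built the scores. The myelin list shares no gene with the scores, and neither does that of cholesterol synthesis. Lists without a shared gene can still vary with the scores between punches. How far the scores carried myelin content was not tested. The median of the 20 cholesterol genes went from 0.04, with 19 of 20 genes higher, to 0.00, with 10 higher and 10 lower. For 28 genes of synaptic vesicle release, 3 of which are also thalamus markers, it went from 0.04 to −0.01. For CA1 and subiculum it went from −0.10 to −0.06, and for circulating leukocytes it was 0.12 in both fits. Away from 0 went, among others, the medians of mature granule cells (−0.01 to 0.05), homeostatic microglia (0.02 to 0.08, with 18 of 20 higher and 3 at an unadjusted p below 0.05), glucocorticoid targets (−0.02 to −0.04) and the mitochondrial genome (0.06 to 0.09). *Adgrf4* was at 0.23 with the scores (unadjusted p = 0.00112) against 0.31 without. All 24 leading genes, which were chosen for a small p in the same mice, had an unadjusted p below 0.05 in that fit. Whether the other tissue was taken with the punch or differed in the animals was not tested.

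Red cell genes gave wide intervals, of which 4 of 12 lay within 1.3-fold, against 22 of 23 for endothelium. Of the 12 measured red cell genes, some of which neurons also express, 11 were higher in SUS mice with a median of 0.23, and 0.08 without SUS mouse 3 of EE. *Hba-a1*, an alpha globin, was at 9.71, 34.3 and 89.2 CPM in SUS mice and at 14.2, 27.7 and 49.8 CPM in RES mice, a log2 difference of 0.43 (−0.02 to 0.88). The control medians were lower, 14.7 and 16.9 CPM. *Cldn5*, the tight junction protein of brain endothelium, was at 20.3, 25.7 and 31.7 CPM in SUS mice and at 17.7, 22.96 and 30.2 CPM in RES mice, a log2 difference of 0.13 (0.00 to 0.25, unadjusted p = 0.0439). Of 23 genes of endothelium and the blood-brain barrier, 17 were higher and 6 lower, with *Cldn5* higher and *Mfsd2a*, a lipid transporter, lower at an unadjusted p below 0.05.

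Several lists of general cell functions had a median near that of all genes, which was 0.00. None of 40 nuclear genes of oxidative phosphorylation, 47 cytosolic ribosomal proteins, 20 clock genes or 20 astrocyte markers had an unadjusted p below 0.05, and the medians were 0.01, −0.01, 0.00 and −0.01. In the same order, 28, 11, 10 and 9 genes were higher in SUS mice and 12, 36, 10 and 11 lower. For ribosomal proteins the direction depended on the model, with 33 higher and 14 lower once the tissue scores were covariates. The 13 genes of the mitochondrial genome had a median of 0.06, with 11 higher and 2 lower and 1 at an unadjusted p below 0.05, and the median was 0.18 within SH and −0.01 within EE. All 40 nuclear genes of oxidative phosphorylation and all 20 of cholesterol synthesis had an interval within 1.3-fold. Of 18 reactive astrocyte genes, 14 were higher and 4 lower. *C3*, *Lcn2* and *Hspb1* (16.7% of the list) had an unadjusted p below 0.05, against 3.47% of all genes. Without SUS mouse 7 of EE, 12 were higher and 6 lower, and 2 had such a p, with 0.0729 for *Lcn2* in edgeR. Of 30 genes of Wnt signaling, 19 were higher and 11 lower, with 3 and 1 (13.3% of the list) at an unadjusted p below 0.05. *Tcf7l2*, which is also a thalamus marker, *Dvl1* and *Wnt10a* were higher, and *Fzd2* was lower.

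**Figure D5:**
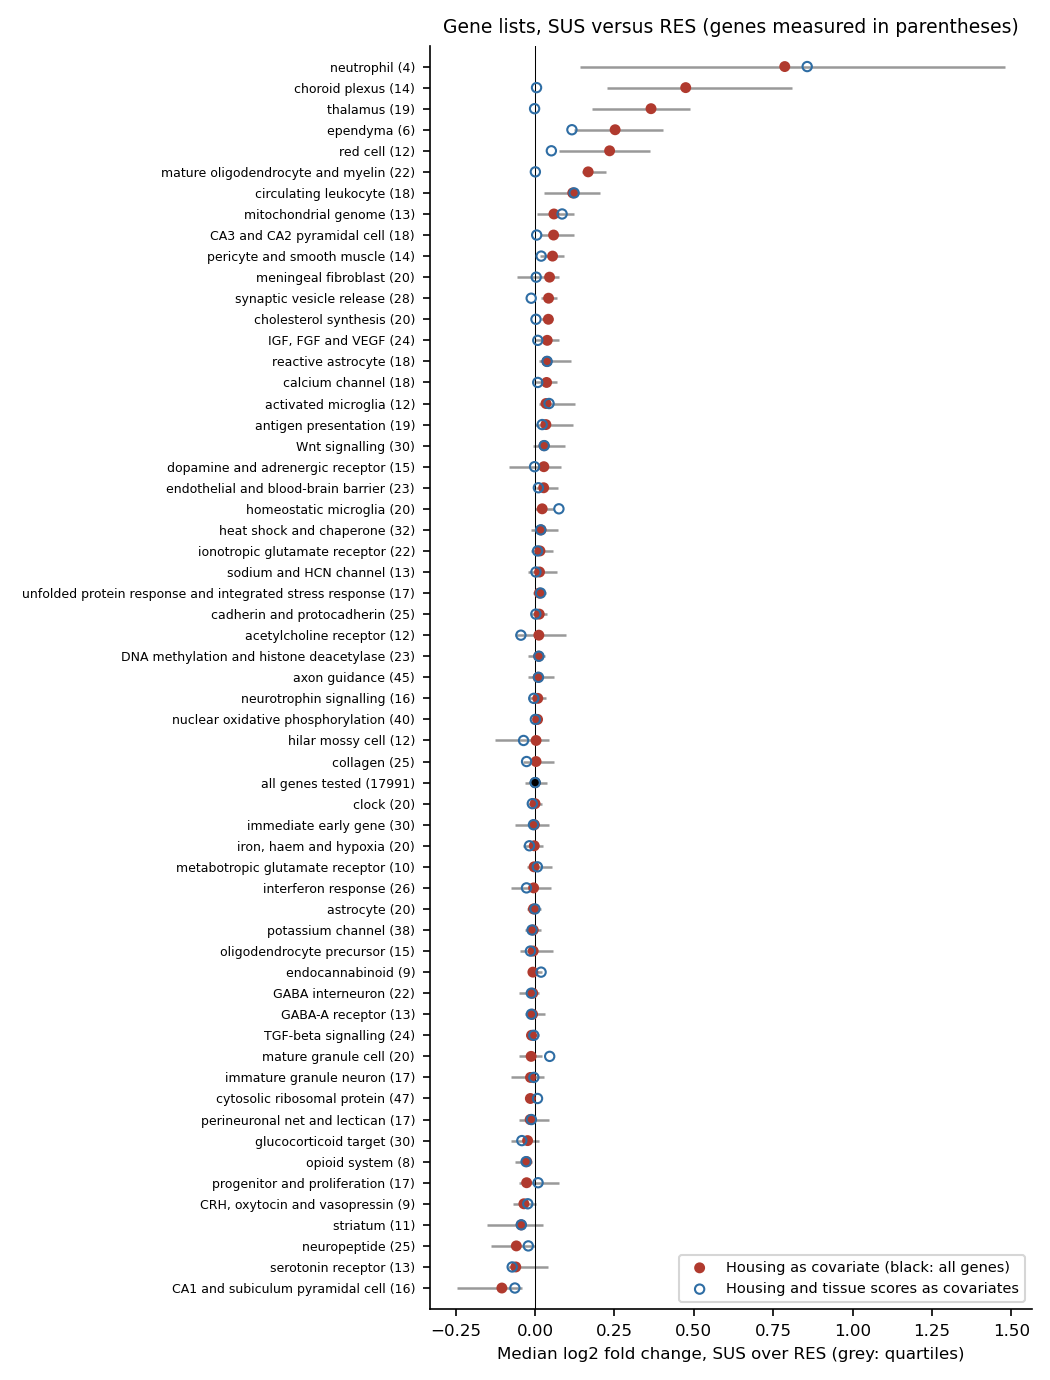
Median log2 difference of SUS over RES mice (x axis) for 58 gene lists and all genes tested (y axis, number of genes measured in parentheses), with housing as covariate (filled, with grey lines from the lower to the upper quartile) and with tissue scores added (open). Choroid plexus, thalamus and myelin lie at 0.47, 0.37 and 0.17 without the scores and at 0.00 with them, and neutrophil genes, of which 4 were measured, at 0.79 and 0.86.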

How the data were processed

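The authors sequenced stranded libraries of total RNA from ventral dentate gyrus punches and deposited, for every gene, the raw counts of read pairs, not normalized. The submitters' processing notes name STAR, Picard and the mm10 build. The methods name featureCounts, but the columns of the tables are those that STAR writes. The reverse-strand column was used, and 3.51 to 4.13% of stranded counts lay on the forward strand. Unmapped, multimapping, unassigned and ambiguous pairs entered neither library sizes nor tests, and their shares are among the 9 technical measures. Of 45318 identifiers, 44671 matched GENCODE M21 (GRCm38), the source of names and coordinates.

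Mice were grouped by the labels. The methods give a small number of replicates for each CSDS group without naming mice, so all labelled mice were used. Both runs of EE control mouse 9 were summed.

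Counts of the 35 mice were filtered with filterByExpr to 17991 genes, scaled by TMM and fitted with phenotype and housing in the quasi-likelihood test of edgeR 4.0.16 (R 4.3.3), with Benjamini-Hochberg adjustment over all genes. limma 3.58.1 (voom) gave the criterion of the study, and DESeq2 1.42.0 was an alternative. Standard errors were the log2 fold change over the square root of F, and 95% intervals follow from them. CPM used the TMM factors, taken over all 54 mice for controls. Technical measures were compared by two-sided permutation within housing (100000 resamples). The depth, at least 18065586 counts per mouse, limits precision below 1 CPM. Tables were read with the data.table package (1.17.8), Python 3.11.15, NumPy 2.4.6 and pandas 2.3.3, and plots drawn with matplotlib 3.10.9. The models were tested on simulated counts.

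Named genes were the 12 protein-coding genes of smallest p in each direction with a mean of at least 1 CPM, the 3 of smallest p at any level, the members of each list at an unadjusted p below 0.05 (or the smallest p), and 26 fixed genes. *Ttr*, *Mbp*, *Ccr2* and the other leukocyte genes fall outside this rule and were picked with their values known. Single values of a few list members that the rule names, or that were picked in this way, are not reported here. The comparison, the fixed genes and 57 lists were chosen with earlier results of these data known, and 1 list was added later. Lists are described by counts and medians, without a test. Alternatives were other scaling, filters, strands, tools, covariates and sample weights, the replicate number as a block, all 54 mice, each housing alone, and each mouse left out.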

Additional observations from a re-analysis of the deposited data

Results flagged for a closer look

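Within a group of 4 to 10 mice, the highest or lowest mouse was compared with the others by Dixon's ratio of the gap to the range. Of 204 groups over 51 genes, 14 had such a mouse, in 13 genes, and chance gives about 1 in 20. In EE SUS mouse 3, *Hba-a1* was at 89.2 CPM (others 9.71 to 39.2) and *Hbb-bs* at 251.6 CPM (others 32.0 to 134.7), and in EE SUS mouse 7, *C3* was at 3.95 CPM (others 0.274 to 1.03). EE SUS mouse 9 had 89.5 CPM of *Bdnf* (others 56.2 to 69.6) and 2.35 CPM of *Dtl* (others 0.905 to 1.51).

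SH RES mouse 5 had 96.7 CPM of *Bdnf* (others 58.6 to 72.0) and 20.9 CPM of *Penk* (others 11.8 to 15.5). SH SUS mouse 3, which had the highest myelin sum, had 5.54 CPM of *Pcolce2* (others 3.60 to 4.50) and 80.4 CPM of *Tsc22d3* (others 52.0 to 63.8). EE RES mouse 9 had 34.1 CPM of *Wfs1* (others 16.2 to 24.3), and EE RES mouse 7 had 6.66 CPM of *Fos* (others 2.24 to 4.45). The mice with a low value were SH SUS mouse 9 in *Fermt3* at 2.91 CPM (others 3.52 to 4.20), EE RES mouse 8 in *Slc35f5* at 19.1 CPM (others 22.1 to 23.9), and SH RES mouse 3 in *Fam118b* at 22.99 CPM (others 25.9 to 27.9).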

How the results depend on the processing

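No gene passed an adjusted p of 0.05 under any alternative run or with any mouse left out, and the smallest adjusted p, without EE SUS mouse 9, was 0.160 in limma and 0.163 in edgeR. At an unadjusted p below 0.05, edgeR named 1356 genes (714 higher, 642 lower in SUS mice) with no low-count filter, which tests more genes, 1130 in SH mice alone and 490 in EE mice alone, against 625. With the study's criterion, limma named 645 genes with no filter, 12 with a stricter filter of 1 CPM in 16 mice, 179 in SH mice alone and 145 in EE mice alone, against 67. Leaving out 1 mouse gave 521 (without SH SUS mouse 3) to 926 genes (without EE RES mouse 6) at an unadjusted p below 0.05, and 56 to 100 genes (without SH RES mouse 4) under the criterion. Of the named genes with an unadjusted p below 0.05, direction reversed for *Kcnj13* with tissue scores (log2 −0.090), *Lag3* in EE mice alone (0.016) and *S100a9* (−0.13 without EE SUS mouse 7, up to 1.65 without EE RES mouse 6), and the causes were not tested. Of the 52 with a larger p, 9 changed sign in EE mice alone, 7 in SH mice alone, 6 with tissue scores, 5 with a mouse left out and at most 2 in any other setting. With the replicate block and housing, 760 genes (419 higher, 341 lower) had an unadjusted p below 0.05, 96 met the criterion and 0 passed adjustment. Deviations of mice of the same number correlated at −0.0730 to 0.294 within a housing, above 0.1 in 4 of 9 EE pairs and 0 of 7 SH pairs. The labels give no shared origin, so the numbers were not taken to pair mice. Mice of different numbers were not compared in this way, so the correlations cannot decide whether the numbers mark a shared origin. The leading genes were chosen for a small p in these same mice, and none changed sign under any alternative. Of the 24, 16 in EE mice alone and 4 in SH mice alone lost an unadjusted p below 0.05. Of 93 named genes with such a p, 25 lost it in limma, 6 in DESeq2, 41 with tissue scores and 40 without at least 1 mouse. Depth limits genes under 1 CPM, for which 28.9% of intervals lay within 1.3-fold.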

Other observations

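The level of a gene was highest in SUS mouse 8 of EE for 1366 of the 17991 genes (7.59%) and in RES mouse 2 of EE for 202 genes (1.12%), the lowest number for any of the 35 mice. Receptors and channels were spread around 0. None of 13 GABA-A receptor, 13 serotonin receptor, 18 calcium channel and 9 endocannabinoid genes had an unadjusted p below 0.05, with medians of −0.01, −0.06, 0.04 and −0.01. *Hcn4* and *Hcn2*, channels of the hyperpolarization-activated current, were at log2 differences of 0.58 and 0.15 (unadjusted p = 0.0308 and 0.0440 in edgeR). Of 13 sodium and HCN channel genes, these were the members at an unadjusted p below 0.05 (15.4%, against 3.47% of all genes). *Chrna5* and *Chrm4*, receptors of acetylcholine, were at −0.45 and −0.17 (unadjusted p = 0.0340 and 0.0429). The latter were the members of 12 measured acetylcholine receptor genes at such a p (16.7%). None of these 4 genes passed adjustment over all genes. With the tissue scores as covariates, the unadjusted p in edgeR was 0.165 for *Hcn4*, 0.223 for *Hcn2*, 0.0547 for *Chrna5* and 0.121 for *Chrm4*.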
